A study of Mus musculus with 52 samples.

Results

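B cells are the antibody-forming lymphocytes of the spleen, and 9 genes that are widely used to recognise their RNA were followed here: Cd79a, Cd79b, Ms4a1, Cd22, Fcer2a, Cr2, Cxcr5, Blk and Pax5. They were picked out of the tables by gene name, the list having been drawn up with earlier results of these data known, and all 9 were found among the 26391 genes listed for spleen and the 38997 genes listed in any tissue. RNA was sequenced from wild-type male mice and from male mice homozygous for the knockout allele Tug1_tm1.1Vlcg (Tug1-/-), an allele of a long noncoding RNA gene that can still start transcription at its own promoter but reads into lacZ in place of the Tug1 sequence that follows its first exon. Both genotypes shared a mixed C57BL/6J and 129S6 background without the Neo selection gene, and the lesion is present in every cell of the body, so that a spleen value cannot be assigned to loss of Tug1 in B cells. The tissues were adult, with no age in weeks in the labels, and the fibroblasts were derived from littermate embryos. Spleen, heart, eyes and liver came from 3 samples per genotype, as did cultured embryonic fibroblasts (MEFs). Prostate came from 3 wild-type and 2 Tug1-/- mice, and testes from 4 wild-type, 4 Tug1-/- and 3 rescue mice, the last being Tug1-/- animals that carried a Tug1 transgene and the doxycycline-dependent activator rtTA and were fed doxycycline.

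The deposited values were the authors' mean expression per genotype, in TPM, the usual unit of transcript abundance, for which reads are corrected for gene length and library depth. Values of single samples were not used here. The spread between mice was therefore unknown, and every difference given below is a ratio of 2 means with no test, no error and no statement of significance. The spleen was bulk tissue, in which fewer B cells and less RNA per B cell cannot be told apart.

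A B cell senses antigen through membrane immunoglobulin, which signals through the paired chains CD79A and CD79B. The kinase BLK takes up that signal, and co-receptors tune it: CR2 (CD21) binds complement fragments on antigen and lowers the threshold for activation, whereas CD22 binds sialic acids and restrains signalling. MS4A1 (CD20) is a membrane protein of B cells from the late precursor stage until they become plasma cells, and FCER2A (CD23) is the low-affinity IgE receptor of follicular B cells. CXCR5 guides B cells into follicles along the chemokine CXCL13, and PAX5 is the transcription factor that keeps a cell in the B lineage. Follicular dendritic cells, which are stromal cells of the follicle, also carry CR2 and FCER2A.

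All 9 genes are protein coding and lie apart from each other on the mouse genome (GRCm38). Cd79a and Cd22 are on chromosome 7, at 24897381 to 24902197 on the plus strand and 30865402 to 30880342 on the minus strand, respectively. Cd79b spans chromosome 11 from 106311341 to 106314762, and Ms4a1 spans chromosome 19 from 11249675 to 11266241. Fcer2a lies on chromosome 8 from 3681737 to 3694175, and Cr2 lies on chromosome 1 from 195136811 to 195176716. Cxcr5 occupies chromosome 9 from 44511787 to 44561877, Blk chromosome 14 from 63372836 to 63417037, and Pax5 chromosome 4 from 44524757 to 44710487. Every gene but Cd79a is on the minus strand.

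RefSeq promoter sequence (GRCm38.p6, 250 bases before a transcription start) was at hand for 5 of the 9 genes and 7 starts: Cd79a, Cd22, Cr2, Pax5 and Fcer2a, the last with several starts. Ms4a1, Cd79b, Blk and Cxcr5 had no entry. The windows of Fcer2a and Cr2 are printed because these receptors share a cell type and had like levels in wild-type spleen, yet differed in their spleen ratio. Both windows are on the minus strand and are written 5′ to 3′, at chr8:3694175-3694424 for Fcer2a and chr1:195176720-195176969 for Cr2. Capitals mark an ETS-type motif (GGAAGT or its reverse complement ACTTCC) and, in the printed Fcer2a window alone of the pair, a TATA-type motif (exactly TATAAA). The other Fcer2a windows, which are not printed, held neither motif.

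Fcer2a: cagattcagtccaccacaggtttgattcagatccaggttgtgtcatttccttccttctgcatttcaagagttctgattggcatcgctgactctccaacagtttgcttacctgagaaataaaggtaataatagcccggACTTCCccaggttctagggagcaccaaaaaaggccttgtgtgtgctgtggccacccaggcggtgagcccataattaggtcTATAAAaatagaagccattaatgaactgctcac

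Cr2: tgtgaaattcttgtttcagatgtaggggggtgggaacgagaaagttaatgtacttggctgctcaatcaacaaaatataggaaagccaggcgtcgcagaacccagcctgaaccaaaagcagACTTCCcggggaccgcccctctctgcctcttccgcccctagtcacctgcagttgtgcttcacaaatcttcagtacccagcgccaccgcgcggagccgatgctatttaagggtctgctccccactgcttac

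The ETS-type motif began 113 bases before the start in Fcer2a and 130 bases before it in Cr2, and the TATA-type motif of Fcer2a began 33 bases before the start. Both strands of all windows were searched, and overlap between motifs was allowed. The ETS-type letters were in 3 of the 7 windows of the B cell genes and in 19.7% of 32851 mouse promoter windows of this length. The PU.1 type (GAGGAA) was in 1 of 7 against 23.3%, the E-box CAGCTG in 1 of 7 against 13.0%, and TATAAA in 1 of 7 against 12.4%. The octamer ATGCAAAT was in 0 of the 7 and in 1.60% of all windows. These matches describe letters in a window and say nothing of binding or of the spleen ratios.

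Tug1 itself was checked first. In spleen, wild-type mice averaged 53.8 TPM and Tug1-/- mice 0.0608 TPM, or 0.113% of the wild-type level. In heart it was 11.6 TPM against 0.0544 TPM. The genotype labels of both tissues therefore matched the targeted gene.

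In wild-type spleen the 9 genes stood at 234 to 1865 TPM, and together they made up 5521 TPM. In wild-type heart the same genes were at 0.309% to 1.65% of their spleen level, with a median of 0.964%.

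All 9 genes had a lower mean in Tug1-/- than in wild-type spleen, by ratios that left 62.9% to 87.2% of the wild-type level (median 76.9%). Their summed level went from 5521 to 4112 TPM (74.5%). The median log2 ratio (mean TPM + 0.1, Tug1-/- over wild type) was -0.38. Lower values were common in this tissue: of 17260 genes with at least 1 TPM in either genotype, 70.2% were lower in Tug1-/- and the median log2 ratio was -0.11. Relative to that median, the median of the 9 genes was -0.27. By the fold used for calls, 1 of the 9 genes was lower by more than 1.5-fold, against 5.07% of the 17260 genes, and 0 were higher by that fold, against 5.40%. Past a smaller limit (a log2 ratio under -0.32), 7 of the 9 were lower, against 17.7% of all genes. After centring on the median of all genes, only Fcer2a, Pax5, Cd79a and Cd79b remained past this smaller limit.

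**Figure D1:**
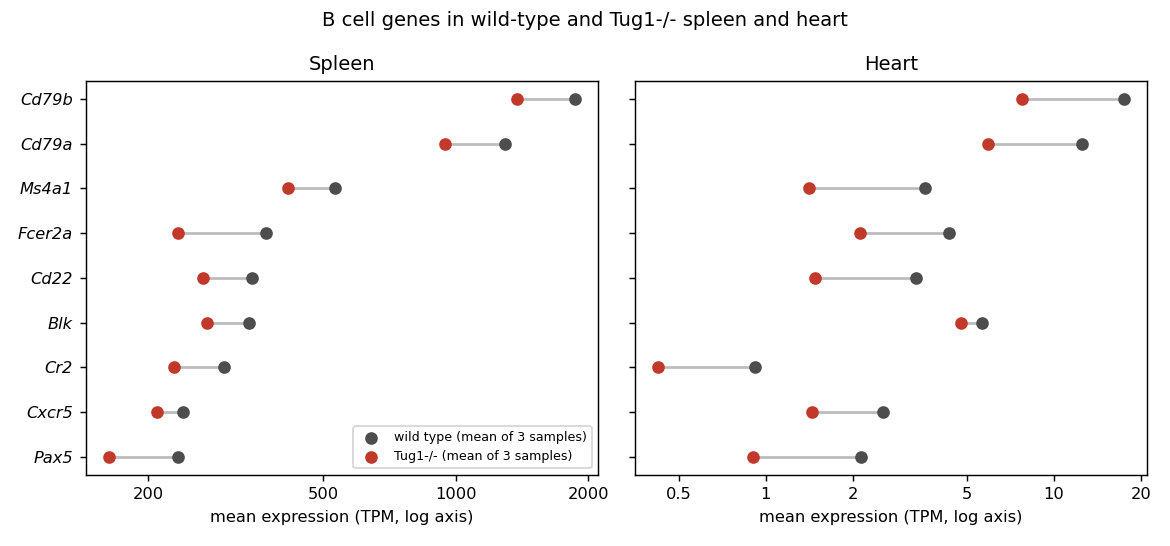
Mean TPM of the 9 genes on a log axis in spleen and heart, with 1 row per gene, a grey point for wild type and a red point for Tug1-/- (each the authors' mean of 3 samples, with no error available). Every red point lies to the left of its grey point in both tissues, with the widest relative gap in spleen for Fcer2a (371 against 233 TPM) and the narrowest in heart for Blk (5.60 against 4.76 TPM).

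The signalling chains of the antigen receptor were the most abundant of the 9 genes. Cd79b went from 1865 TPM (wild type) to 1378 TPM (Tug1-/-) in spleen, a log2 ratio of -0.44 that left 73.9% of the wild-type level. Cd79a, which encodes its partner chain, went from 1295 to 947 TPM (-0.45, 73.1%). The level of Cd79b over Cd79a was 1.44 in wild type and 1.45 in Tug1-/- spleen, so the pair kept its proportion between the means. Blk, the receptor-proximal kinase, stood at 339 and 272 TPM (-0.32, 80.2%), a smaller difference than that of either chain.

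Among co-receptors and other surface proteins, Fcer2a had the lowest ratio of the 9 genes. Its means were 371 and 233 TPM (-0.67, 62.9%), and it was the gene past 1.5-fold. Relative to the median of all genes its log2 ratio was -0.56, which is not past that fold. Cr2, the complement receptor, went from 298 to 229 TPM (-0.38, 76.9%). The level of Cr2 over Fcer2a was thus 0.801 in wild type and 0.980 in Tug1-/- spleen. The inhibitory receptor Cd22 had means of 345 and 266 TPM (-0.38, 77.0%), close to the ratio of Cr2. Ms4a1, which encodes CD20, had means of 533 and 415 TPM (-0.36, 77.9%).

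The chemokine receptor and the transcription factor lay toward opposite ends of the range. Cxcr5 had means of 240 and 210 TPM (-0.20, 87.2%), the ratio nearest to 0. Pax5 had means of 234 and 163 TPM (-0.53, 69.5%), the second lowest ratio after Fcer2a. Set against all 17260 genes, 3.53% had a lower ratio than Fcer2a and 6.47% a lower ratio than Pax5. For Cd79a and Cd79b this share was 9.17% and 9.83%, for Cr2, Cd22 and Ms4a1 it was 13.0%, 13.2% and 14.4%, and for Blk 18.1%. Cxcr5, with 33.2% of genes below it, was well inside the bulk of the tissue. The plot of all ratios shows the same placement.

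**Figure D2:**
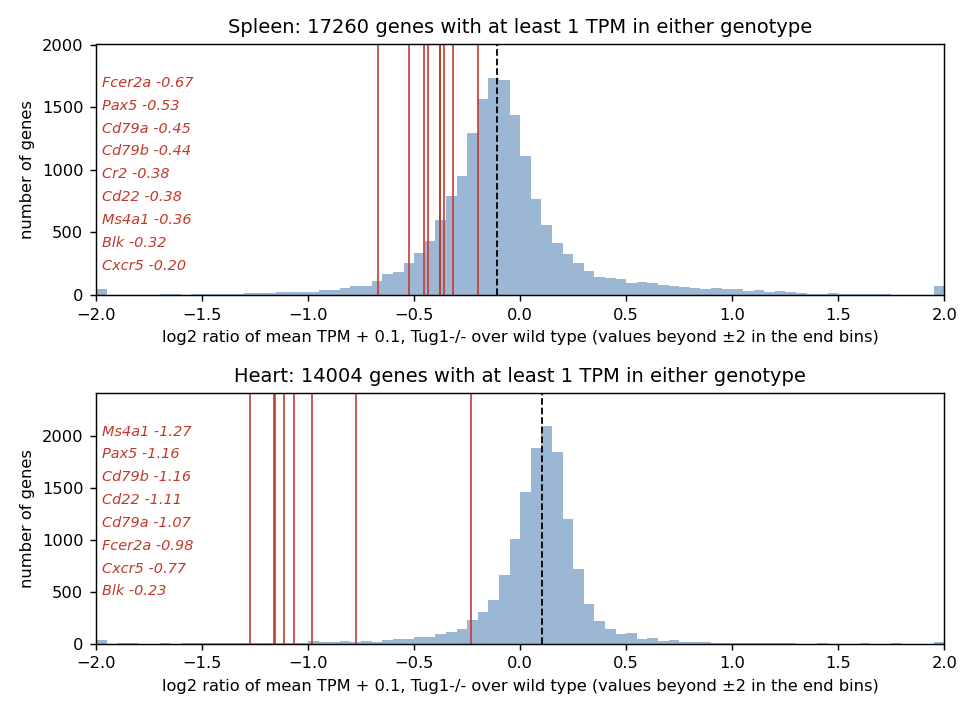
Histograms of the log2 ratio of mean TPM + 0.1 (Tug1-/- over wild type, x axis) by number of genes (y axis), for 17260 genes in spleen and 14004 in heart with at least 1 TPM in either genotype. Red lines are the B cell genes named at the left of each panel, and the dashed line is the median of all genes (-0.11 in spleen, 0.10 in heart). In spleen the red lines lie on the left shoulder of the histogram, and in heart 7 of 8 lie in its left tail.

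The order of the genes by level was nearly kept. Cd79b, Cd79a and Ms4a1 ranked 1, 2 and 3 in both genotypes, and Cr2, Cxcr5 and Pax5 ranked 7, 8 and 9. Fcer2a went from rank 4 to rank 6 and Blk from 6 to 4, with Cd22 at rank 5 in both. The highest of the 9 levels was 7.95 times the lowest in wild type and 8.46 times in Tug1-/- spleen. Whether neighbours in this order, such as Cd22 and Blk at 345 and 339 TPM, differ beyond their spread could not be judged from means. The mean normalised read count over the spleen libraries ran from 11091 for Cxcr5 to 43306 for Ms4a1, so few reads did not limit any of the 9 values, but the variation between mice is not covered by such counts.

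Scaling bore on these values. Ptprc (CD45), a surface phosphatase of all white blood cells, had means of 267 and 220 TPM in spleen, a log2 ratio of -0.28. B cells are among these cells, so this divisor is not independent of the 9 genes. Expressed per Ptprc, the median of the 9 genes was -0.10, 8 of 9 were still below 0, and Cxcr5 was above it at 0.082. No gene of the 9 was then past 1.5-fold, and Fcer2a alone (-0.39) was past the smaller limit. The composition of the libraries also differed between genotypes: globin genes took 2.43% of all TPM in wild-type and 4.35% in Tug1-/- spleen, immunoglobulin genes 10.6% and 12.6%, and 6 digestive enzyme genes of the pancreas 0.00727% and 0.767%. With those 3 groups left out and TPM rescaled, the median of the 9 genes was -0.30 and 1 remained past 1.5-fold.

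A further 80 genes in 7 lists were examined, which hold genes of mature B cells and genes of the follicle stroma and survival pathways that other cells also express. In spleen 79 of them passed 1 TPM, 74 had a lower mean in Tug1-/- (93.7%, against 70.2% of all genes), 4 were lower by more than 1.5-fold (5.06%, much the same as the 5.07% of all genes) and 0 were higher by that fold (against 5.40%). Their median log2 ratio was -0.28, between that of the 9 genes and that of all genes. The 4 genes lower by more than 1.5-fold were Ralgps2, Vpreb3, Tnfrsf13c and Cxcl13. Centred on the median of all genes, these stood at -0.48 to -0.49, which is not past that fold.

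Antigen receptor signalling genes, which relay the signal from CD79A and CD79B, were lower in 14 of 15, with 0 past 1.5-fold and a median of -0.22. Inhibitory receptors and phosphatases were lower in 9 of 9 (median -0.26), led in level by the phosphatase gene Ptpn6 at 563 and 494 TPM (-0.19). B cell transcription factors were lower in 12 of 13 (median -0.30), and Spib, an ETS-family factor, stood at 466 and 373 TPM (-0.32). None of these groups had a gene past 1.5-fold.

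Pan B cell surface and adaptor genes were lower in 10 of 11, with a median of -0.38. Vpreb3 (98.7 and 65.7 TPM) and Ralgps2 (91.9 and 61.0 TPM) were both past 1.5-fold at -0.59. The exception was Cd24a, a surface antigen that red cell precursors and neutrophils also carry, with means of 714 and 958 TPM (0.42). Among BAFF and survival genes, 5 of 7 were lower. Tnfrsf13c, the receptor through which BAFF keeps mature B cells alive, had means of 317 and 209 TPM (-0.60, past 1.5-fold), whereas Mcl1, a survival gene used by many cell types, had 627 and 522 TPM (-0.26).

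Follicle genes were lower in 15 of 15 (median -0.32). Cxcl13, the CXCR5 ligand made by follicular stroma, had means of 592 and 395 TPM (-0.59, past 1.5-fold), a lower ratio than that of its receptor gene Cxcr5 (-0.20). Ltb, a lymphotoxin subunit by which B cells maintain that stroma, had means of 649 and 476 TPM (-0.45). Genes of marginal zone B cells, the subset at the border of the follicle, were lower in 9 of 9 with 0 past 1.5-fold (median -0.28), with Plac8 at 647 and 534 TPM.

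Most genes of activated and antibody-secreting B cells did not share this direction. Germinal centre genes were higher in 8 of 9, with a median of 0.34 and 2 past 1.5-fold upward, in a tissue where 70.2% of all genes were lower and 5.40% were past that fold upward. Rgs13, a regulator of G protein signalling, had means of 9.60 and 18.0 TPM (0.90). Basp1, the most abundant gene of that list, was the lower one at 43.7 and 38.6 TPM. Plasma cell genes were higher in 6 of 9, 1 of them past 1.5-fold (median 0.23). The 3 lower ones were Irf4 (87.6 and 74.2 TPM), Sdc1 (20.1 and 18.8 TPM) and Mzb1 (668 and 652 TPM). Jchain, the joining chain of secreted IgM and IgA, had means of 1985 and 2445 TPM (0.30), and Derl3, a gene of protein quality control in the secretory pathway, had 23.8 and 36.1 TPM (0.60, past 1.5-fold). Of the precursor list, 4 of 8 genes passed 1 TPM, 2 lower and 2 higher, 1 of the latter through Tug1-/- alone, with Il7r at 67.8 and 91.4 TPM.

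Immunoglobulin constant region genes went both ways, with 8 of 12 lower, 1 past 1.5-fold in each direction and a median of -0.14, close to all spleen genes (70.2% lower, median -0.11). Igkc had means of 23852 and 31214 TPM, Iglc3 of 2236 and 1117 TPM (49.9%) and the sparse Ighe of 1.49 and 3.18 TPM. Plasma cells also transcribe these genes. Iglc3 has a near-identical copy in Iglc2, and its value is uncertain for a count of uniquely mapped reads.

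**Figure D3:**
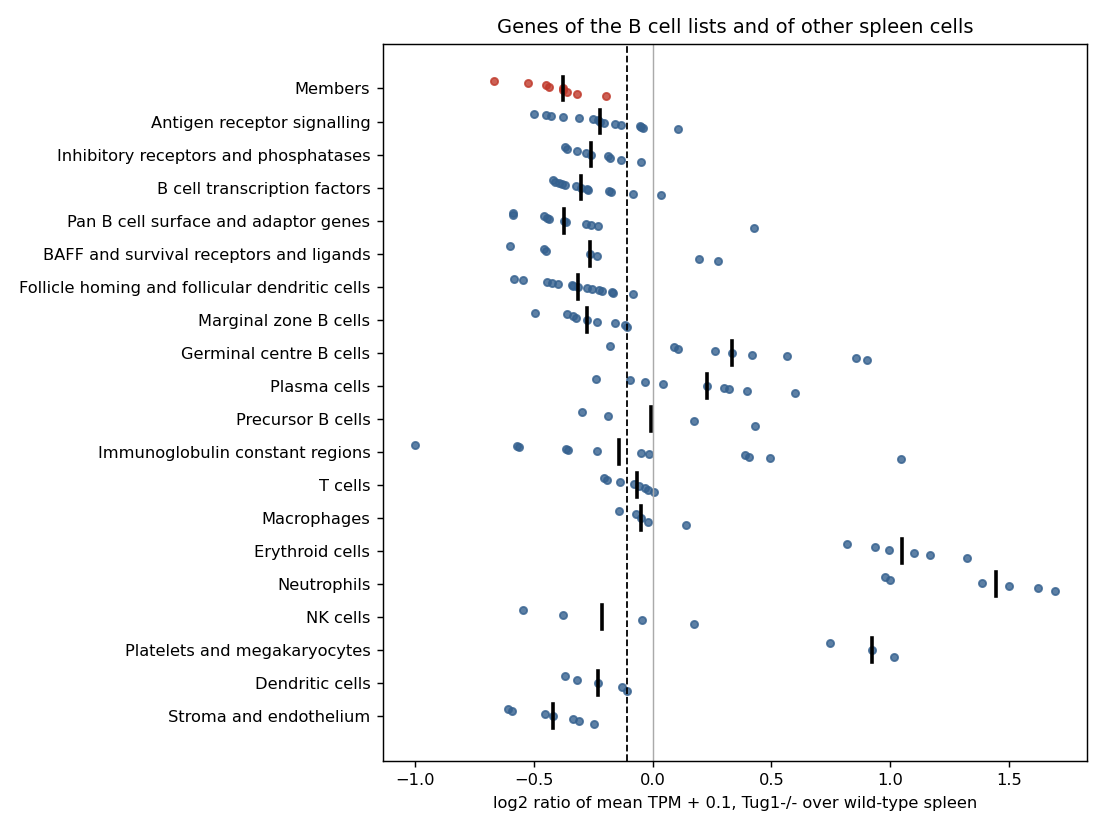
Log2 ratio of mean TPM + 0.1 in spleen (x axis, Tug1-/- over wild type) for the 9 B cell genes (red) and for each gene of the other lists (blue points, a row per list), with a black bar at each list's median. The dashed line is the median of all genes (-0.11) and the pancreas list (median 8.93) is left out because it is off the scale. The 7 rows from antigen receptor signalling to marginal zone B cells lie mostly left of the dashed line, germinal centre and plasma cell rows mostly right of it, and erythroid, neutrophil and platelet rows entirely above 0.

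Markers of other spleen cells moved with genotype beside these values. All 6 erythroid genes were higher by more than 1.5-fold, against 5.40% of all spleen genes. The erythroid sum was 20121 and 36469 TPM (1.81 times as high), with Hbb-bs, a beta-globin gene, at 15293 and 26982 TPM. All 6 neutrophil genes were higher by that fold (sum 1548 and 3292 TPM, median 1.44), as were all 3 platelet genes (sum 505 and 993 TPM, median 0.92). The 6 pancreas genes went from a summed 72.7 to 7666 TPM, with Ctrb1 at 3.14 and 2154 TPM. The pancreas lies against the spleen, and its 6 genes were at 0.756 TPM or more in wild type, none of them at 0. T cell genes were lower in 7 of 8 with a median of -0.07 (sum 947 and 893 TPM), where 70.2% of all spleen genes were lower with a median of -0.11. Trac had means of 260 and 250 TPM. Macrophage genes had a median of -0.05 (sum 1173 and 1163 TPM), NK cell genes -0.21 (146 and 114 TPM) and dendritic cell genes -0.23 (179 and 150 TPM). Stromal and endothelial genes were lower in 7 of 7 (median -0.42, sum 378 and 290 TPM), a lower median than that of the 9 B cell genes. Of these, Pdgfrb and Col3a1 were lower by more than 1.5-fold, against 5.07% of all spleen genes. Centred on the median of all genes, Pdgfrb and Col3a1 were at -0.50 and -0.48, not past that fold. The part of these differences in the B cell values was not tested.

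Heart, where B cells are a minor population of the tissue and its blood, also had lower means, and by a larger ratio. Of the 9 genes, 8 reached 1 TPM in either genotype, Pax5 through wild type alone, so that the filter fixed its direction. All 8 were lower in Tug1-/- heart, 7 by more than 1.5-fold, against 2.49% of 14004 genes, and 0 were higher by that fold, against 2.08%. Pax5 is in both of these counts of lower genes. The others past the fold were Cd79a, Cd79b, Ms4a1, Cd22, Fcer2a and Cxcr5. The median log2 ratio was -1.09, while the median of all heart genes was 0.10. The summed level of the 9 genes went from 52.3 to 26.2 TPM (50.1%). The difference between the spleen and heart ratios was not tested.

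By role, Cd79b had means of 17.4 and 7.76 TPM in wild-type and Tug1-/- heart (-1.16) and Cd79a of 12.5 and 5.91 TPM (-1.07), with Cd79b over Cd79a at 1.39 and 1.31. Ms4a1 had the lowest ratio, at 3.56 and 1.41 TPM (-1.27). Cd22 had means of 3.33 and 1.48 TPM (-1.11), Fcer2a of 4.31 and 2.13 TPM (-0.98), and Cxcr5 of 2.55 and 1.45 TPM (-0.77). Pax5 had means of 2.14 and 0.903 TPM (-1.16). Blk stood apart at 5.60 and 4.76 TPM (-0.23), and its wild-type heart level was also the highest relative to spleen, at 1.65%. Cr2 was below 1 TPM in both, at 0.920 and 0.423 TPM.

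These heart means rested on far fewer reads than those in spleen: the mean normalised count over the heart libraries was 112 for Cr2 and 369 for Cd79b, the lowest and highest of the 9. Whether a single sample carried much of a group mean could not be examined. Igkc had means of 98.2 and 40.2 TPM (-1.29). Of the 80 genes of the 7 lists, many of which heart cells also express, 72 passed 1 TPM in heart, 54 of them lower (75.0%, against 25.2% of all heart genes), 20 lower by more than 1.5-fold (27.8%, against 2.49%) and 2 higher by that fold (2.78%, against 2.08%). Of the 72, 8 passed through wild type alone, and 7 of those were among the 20, while 1 of the 2 higher genes passed through Tug1-/- alone, so the filter partly fixed their direction. Other blood and immune genes were measured beside them. Ptprc had means of 3.97 and 3.09 TPM (-0.35), all 8 T cell genes had lower means (sum 11.7 and 8.26 TPM), 4 of them under 1 TPM in both genotypes, and 5 of the 6 erythroid genes were lower (sum 37592 and 30034 TPM), with Hbb-bs at 29200 and 23318 TPM. Of the 5 macrophage genes, 3 were higher and the other 2, both under 1 TPM, were lower (sum 60.3 and 73.1 TPM). Per Ptprc, the median of the 8 B cell genes was -0.74 and Blk was above 0 at 0.12. The part of blood in the heart values was not tested.

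In eyes, liver, prostate and MEFs the 9 genes were sparse. In eyes 4 of them passed 1 TPM (72.3% of all eye genes were lower), and the summed level was 7.43 and 7.12 TPM. There Cd79a was lower in Tug1-/-, Cd79b was higher and Cd22 was at 1.05 TPM in both genotypes. Fcer2a, at 1.29 and 0.992 TPM, was lower but passed through wild type alone. In liver 2 passed (47.3% of all liver genes were lower), with sums of 4.34 and 3.95 TPM. Cd79b was higher, and Cd79a, at 1.11 and 0.850 TPM, was lower but passed through wild type alone. The filter fixed the direction of any gene that passed through 1 genotype alone. In prostate 3 passed and all were higher, where 41.2% of all genes were lower, with sums of 4.96 and 6.52 TPM, and Cr2 at 0.539 and 1.31 TPM passed through Tug1-/- alone. Igkc, given above for heart, had prostate means of 37.2 and 209 TPM (2.48). MEFs had 5 of the 9 genes listed and 0 at 1 TPM, while Blk, Fcer2a, Ms4a1 and Pax5 were not listed, as the authors dropped genes with under 3 reads in every replicate.

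Testes differed in which genes were present. Pax5 had means of 7.42, 7.93 and 7.91 TPM in wild-type, Tug1-/- and rescue testes, and Cxcr5 of 4.59, 5.04 and 4.22 TPM. Wild-type Pax5 in testes was thus 3.16% of its spleen level, against a median of 0.122% over the 9 genes. Blk was near 1 TPM (0.845, 1.09 and 0.901 TPM) and passed through Tug1-/- alone. All 3 genes that passed were higher in Tug1-/- than in wild-type testes, where 38.3% of all genes were lower, and the other 6 genes were under 1 TPM in all 3 groups, including Cd79a at 0.113, 0.138 and 0.257 TPM and Cd79b at 0.192, 0.272 and 0.251 TPM. Pax5 and Cxcr5 were therefore listed in testes with the antigen receptor chains near 0.

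**Figure D4:**
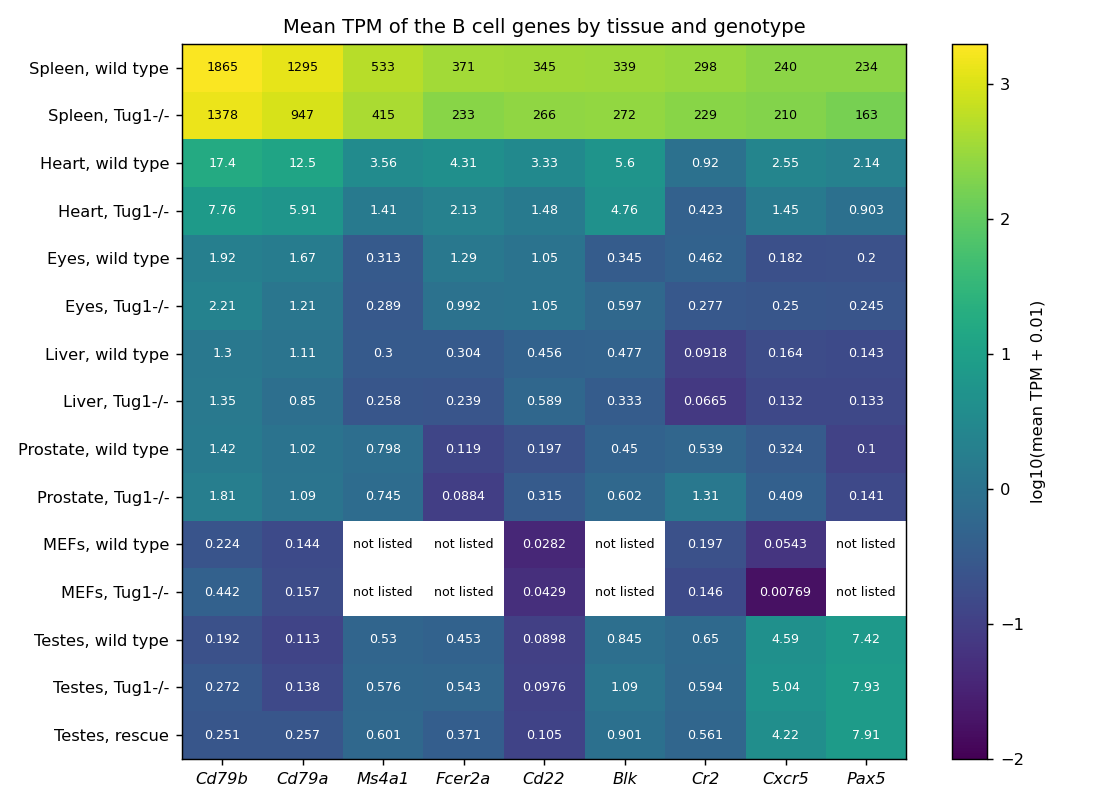
Mean TPM of the 9 B cell genes (columns) in each tissue and genotype (rows), with the value printed in each cell and the colour giving log10 of mean TPM + 0.01; each cell is the authors' mean of 2 to 4 samples. Spleen holds every gene at 163 TPM or more, heart holds 8 of 9 at 2.14 to 17.4 TPM in wild type, and in testes Pax5 and Cxcr5 stand out from the other genes of their rows.

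Other genes followed the same pattern over tissues. Among 12136 genes with at least 5 TPM in wild-type spleen, the log2 profile over the 15 group means was most like the mean profile of the 9 genes for Clec2i, Pou2af1, A430078G23Rik, Ms4a4c and Ctse, with Pearson's r of 0.998, 0.995, 0.995, 0.994 and 0.991. The 9 genes themselves had r from 0.880 (Pax5) to 0.993 (Ms4a1) with their own mean. These correlations describe how strongly a gene is set apart in spleen, since 2 of the 15 points are spleen and pairs of points share a tissue. By genotype the 5 genes differed. In spleen, Ms4a4c had means of 196 and 147 TPM (-0.42), within the range of the 9 genes, Clec2i of 81.6 and 73.8 TPM (-0.15), A430078G23Rik of 45.6 and 43.9 TPM (-0.05), Pou2af1, a coactivator of octamer factors in B cells, of 406 and 417 TPM (0.04), and Ctse, the gene of the protease cathepsin E, of 106 and 213 TPM (1.01).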

How the data were processed

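Polyadenylated RNA was sequenced as paired-end reads. The authors aligned reads with STAR to GRCm38 with GENCODE vM16, used featureCounts to count reads that mapped uniquely, and dropped genes for which no replicate had 3 reads. Strand setting is not given in the sources used here. The deposited tables hold the authors' mean TPM per genotype and tissue. As a deposited signal they also hold a mean normalised read count over both genotypes of a tissue, which the authors made with DESeq2 size factors. They further hold the authors' own comparisons (fold changes, statistics, p-values), which were not used. Values of single samples and depth per sample were not analysed here, so no test or interval was made. Rows for brain, from libraries of another series, and the F1 hybrid testes were left out.

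Ratios were log2((Tug1-/- TPM + 0.1)/(wild-type TPM + 0.1)) for genes with at least 1 TPM in either genotype. A gene was counted when past 1.5-fold. Since a pseudocount was added, low genes have understated ratios. The computation was tested on simulated data. The 9 genes and the 20 gene lists (168 genes) were chosen with earlier results of these data known. Named are the 9 genes, Tug1, Ptprc, in each list the gene highest in wild-type spleen and up to 4 past 1.5-fold, and the 5 genes with the most similar profile. Some genes this rule names are not reported here. Promoters and motifs came from RefSeq. Alternatives were other pseudocounts (0 and 1), folds (log2 0.32, and 2-fold), filters and scalings. Python 3.11.15, numpy 2.4.6, pandas 2.3.3 and matplotlib 3.10.9 were used.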

Additional observations from a re-analysis of the deposited data

How the results depend on the processing

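No paired analysis was possible because the values used are group means, which carry no replicate number, and leaving out single replicates was not run for the same reason. The 9 genes were below 0 in spleen under each pseudocount, under centring on all genes and under rescaling without globin, immunoglobulin and pancreas genes (chosen after seeing the data, as were all heart alternatives). Per Ptprc, Cxcr5 in spleen reversed to 0.082 and Blk in heart to 0.12. The count of spleen genes past the fold (1 of 9) was 7 at the smaller fold (log2 0.32) and 0 at 2-fold, when centred and per Ptprc. The spleen median (-0.38) was -0.27 when centred and -0.10 per Ptprc. The share of all spleen genes past 1.5-fold in either direction (10.5%) was 6.48% with a pseudocount of 1, 27.0% at the smaller fold, 3.55% at 2-fold and 6.88% with a minimum of 5 TPM. The heart median (-1.09) was -0.78 with a pseudocount of 1, -1.19 when centred and -0.74 per Ptprc. The share of heart genes (4.56%) was 2.39% with a pseudocount of 1, 12.6% at the smaller fold, 1.67% at 2-fold and 8.75% with no filter. A value was taken as unmoved within 0.1 on the log2 scale, and a count or share within 1.5 times. Of 137 alternative values, 80 were unmoved. The cause of the other moves was not tested beyond what each setting itself changes. Unknown spread between mice limits all of these values, and sparse reads limit those in heart.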
